A study of Mus musculus with 8 samples.

Results

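Interferon response genes were followed in mouse embryonic stem cells that lacked either the SUMO-conjugating enzyme Ubc9 or the histone H1 genes Hist1h1c, Hist1h1d and Hist1h1e. The set is 9 of the 24421 genes in each count table, taken from a list of symbols: Ifih1, Irf7, Oas1a, Ifit1, Ifit3, Bst2, Isg15, Usp18 and Xaf1. All 9 symbols were found in both tables. No measured value was used to pick them, but they were listed with earlier results of these data known.

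Type I interferons are secreted proteins that warn cells of viral nucleic acid. Sensors in the cytoplasm, such as the double-stranded RNA receptor MDA5 encoded by Ifih1, start the signal that induces interferon. Secreted interferon binds its receptor, and the kinases JAK1 and TYK2 then activate a transcription factor complex that binds interferon-stimulated response elements (ISREs) in the promoters of the response genes. Embryonic stem cells are known for a muted interferon system compared with differentiated cells.

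The 4 groups held 2 libraries each. Ubc9 depletion was induced in v6.5 cells with doxycycline for 72 hours, and the Ubc9 control cells came from the same line; whether doxycycline was also given to those controls is not stated in the labels. H1 triple-knockout (TKO) cells and the H1 control cells were lines made for an earlier publication, and the labels do not say how many clones each group stands for. All cells were kept in 2i/LIF for 3 to 4 passages, a medium for naive pluripotency. PolyA RNA was sequenced from ScriptSeq v2 libraries in the Ubc9 experiment and from SENSE V2 libraries in the H1 experiment. Cell line and kit therefore differ between the experiments, and each depleted or knockout group was compared only with its own control. Nothing in the labels tells whether paired libraries came from separate cultures, so the p-values below measure the spread between libraries, which may be technical.

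The libraries held between 44441713 and 102780141 counts. Levels are given as CPM, counts relative to the size of the library. Hist1h1c, Hist1h1d and Hist1h1e had 0 counts in both H1 TKO libraries, against 100 to 231 counts in the H1 controls. Library 1 of the Ubc9-depleted group stood apart. A set of 6248 genes had no more than 1 count in either Ubc9 control, and 85.2% of them had a count in library 1, against 29.2% in library 2. The H1 control libraries also differed from each other. In the H1 comparison the 764 tested genes of chromosome 8 had a median log2 fold change of -0.53, and those of chromosome 6 of -0.44, against -0.02 over all 14800 genes tested. Bst2 lies on chromosome 8 and Usp18 on chromosome 6.

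Promoter sequence was available for 8 of the 9 genes, from RefSeq on GRCm38.p6. The core of the ISRE was searched as GAAANNGAAA on both strands, which reads TTTCNNTTTC where the match is on the other strand. It was present between 250 bases before and 50 bases after the start of transcription in 6 of the 8 windows (Oas1a, Isg15, Ifit1, Ifit3, Bst2 and Ifih1), and was not found in those of Xaf1 and Irf7. Of all 32851 such windows of 300 bases, 3.44% held it. The 150 bases before the start are shown for the 3 members with the highest levels and for Isg15 and Ifit1, which carry several matches and were near 0 in the controls. They run 5′ to 3′ on the gene's strand, and capitals mark ISRE core matches.
Bst2 (chr8:71537473-71537622, minus strand): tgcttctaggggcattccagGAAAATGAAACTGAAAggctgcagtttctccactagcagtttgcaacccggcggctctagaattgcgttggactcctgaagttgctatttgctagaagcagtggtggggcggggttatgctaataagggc
Xaf1 (chr11:72301479-72301628, plus strand): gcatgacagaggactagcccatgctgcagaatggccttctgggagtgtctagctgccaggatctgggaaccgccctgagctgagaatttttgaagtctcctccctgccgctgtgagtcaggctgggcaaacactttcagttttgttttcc
Oas1a (chr5:120907526-120907675, minus strand): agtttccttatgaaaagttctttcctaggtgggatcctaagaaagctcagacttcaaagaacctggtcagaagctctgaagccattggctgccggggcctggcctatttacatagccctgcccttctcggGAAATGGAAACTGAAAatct
Isg15 (chr4:156200819-156200968, minus strand): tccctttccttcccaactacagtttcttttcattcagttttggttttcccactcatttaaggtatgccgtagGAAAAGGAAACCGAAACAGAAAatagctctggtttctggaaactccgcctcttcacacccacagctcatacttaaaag
Ifit1 (chr19:34640739-34640888, plus strand): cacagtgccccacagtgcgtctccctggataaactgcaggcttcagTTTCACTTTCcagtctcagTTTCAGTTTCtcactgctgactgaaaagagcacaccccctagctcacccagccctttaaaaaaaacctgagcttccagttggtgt

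Overlapping matches share bases in 3 of these runs. Oas1a and Bst2 each hold 2 overlapping matches, from -20 to -5 in Oas1a and from -130 to -115 in Bst2, and Isg15 holds 3 between -78 and -57, counted from the start. Ifit1 holds 2 separate matches on the other strand, at -104 to -95 and -85 to -76. The gamma-activated site TTCNNNGAA, a palindrome known from targets of interferon gamma, was matched in Oas1a at -98 to -90 and in Bst2 at -136 to -128, where it overlaps the first ISRE match, and in 8.3% of all windows of 300 bases. A match is a description of the letters only.

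All 9 members are protein-coding genes in GENCODE M21 on GRCm38. The gene bodies are Oas1a at chromosome 5, 120896256 to 120907521, Xaf1 at chromosome 11, 72301629 to 72313733, and Bst2 at chromosome 8, 71534255 to 71537456. Ifih1 spans chromosome 2, 62595798 to 62646255, Irf7 spans chromosome 7, 141262706 to 141266481, and Usp18 spans chromosome 6, 121245906 to 121270917. Isg15 lies at chromosome 4, 156199424 to 156200818, and Ifit3 and Ifit1 lie on chromosome 19, at 34583531 to 34588731 and 34640871 to 34650009. Exons of Usp18 overlap those of the noncoding gene Gm44148 by 124 bases and exons of Irf7 overlap those of Phrf1 by 45 bases, both on the opposite strand. Whether counting used strand is not given in the sources used here, so reads in those stretches could belong to either gene. Oas1a and Ifit3 have near-identical neighbours, Oas1g and Ifit3b, and how reads shared between copies were counted is not given either.

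Only Bst2, Xaf1 and Oas1a were well covered in every library, with at least 447 counts. With CPM divided by exonic length in kb (RPKM), Bst2, the membrane protein tetherin that holds budding virus on the cell surface, was the most abundant in every group. Its mean ± SD was 12.2 ± 0.648 RPKM in the Ubc9 controls, 20.9 ± 3.52 in the Ubc9-depleted cells, 28.3 ± 9.62 in the H1 controls and 47.7 ± 1.15 in the H1 TKO cells (n = 2 each). Xaf1, which binds and counters the apoptosis inhibitor XIAP, was the next in 3 groups, at 8.81 ± 1.13, 6.42 ± 0.266 and 12.8 ± 0.22 RPKM in the Ubc9 control, Ubc9-depleted and H1 TKO cells. In the H1 controls Oas1a, which makes the 2-5A messenger that activates RNase L, came before Xaf1, at 5.86 ± 1.59 against 3.36 ± 0.572 RPKM (n = 2 each). Neighbours among these 3 genes did not overlap in any group.

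The other 6 members were near silent. In the Ubc9 controls Irf7 led them at 0.0389 ± 0.0144 RPKM, and Ifit1 had 0 counts in both libraries. Their ranges mostly overlapped those of their neighbours in the order, so that no order among them is read. In the H1 controls Ifih1, Ifit1, Ifit3 and Usp18 had 0 counts in both libraries, where 3 counts, the upper limit that 0 counts allow, correspond to 0.0492 and 0.0582 CPM. These limits cover counting error only.

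**Figure D1:**
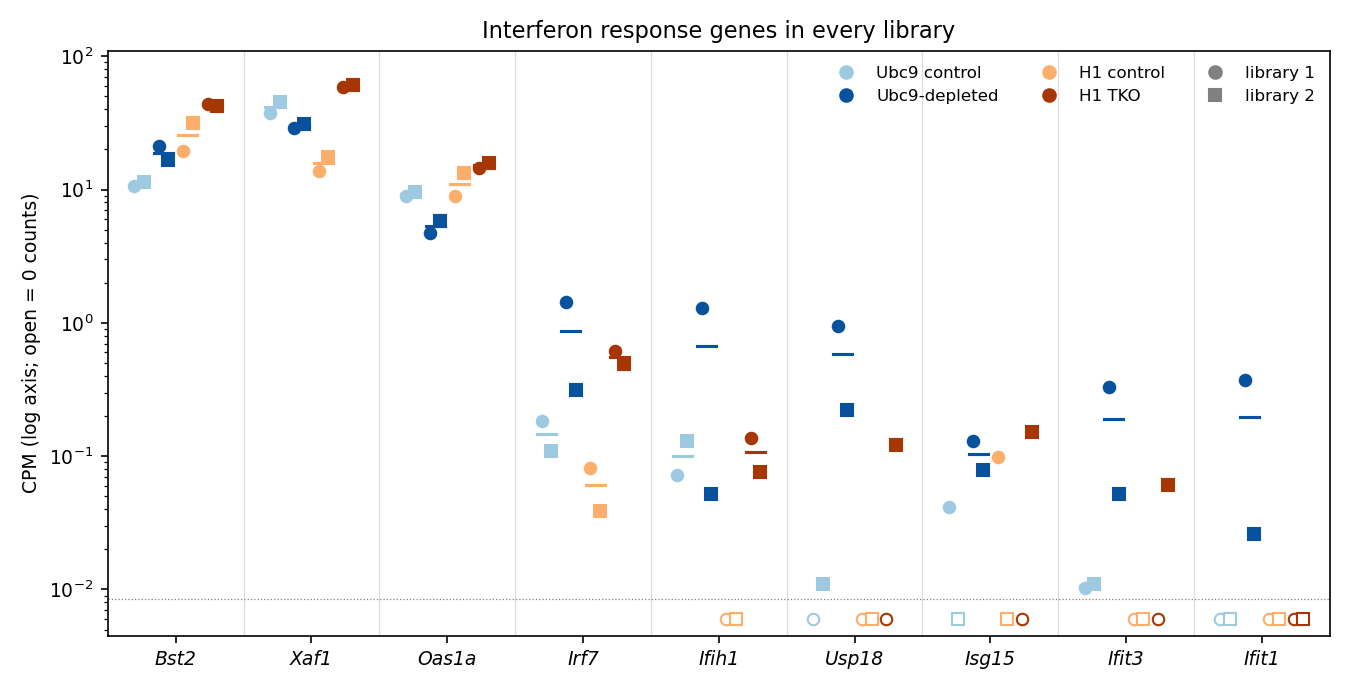
CPM of the 9 interferon response genes in each of the 8 libraries on a log axis, with circles for library 1, squares for library 2, bars for the mean of the 2 libraries where both have counts, and open symbols below the dotted line for 0 counts. Bst2, Xaf1 and Oas1a lie between 4.74 and 60.7 CPM in every library, and the other 6 reach at most 1.43 CPM.

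Ubc9 depletion moved the 3 expressed members in different directions. Bst2 rose and Oas1a and Xaf1 fell. Bst2 stood at 21.1 and 16.6 CPM in the depleted libraries against 10.6 and 11.4 CPM in the controls, with no overlap. The log2 fold change was 0.78 ± 0.12 (SE; 1.71-fold; edgeR adjusted p = 7.51e-06), and it was 0.59 without depleted library 1 (adjusted p = 0.000269) and 0.86 without depleted library 2 (adjusted p = 9.35e-06). Its adjusted p lay between 3.45e-08 and 0.0509 over 10 other ways of fitting, the highest, where the call was lost, when all 8 libraries shared 1 fit.

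Oas1a stood at 4.74 and 5.85 CPM in the Ubc9-depleted libraries and at 8.94 and 9.53 CPM in the controls. Both depleted libraries were below both controls. Its log2 fold change of -0.80 ± 0.15 (SE; edgeR adjusted p = 0.00015) passed under all 10 alternatives, with adjusted p between 3.38e-06 and 0.0386. Oas1a thus moved against Bst2.

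Xaf1 had 29.2 and 31.0 CPM in the Ubc9-depleted libraries and 37.5 and 45.1 CPM in the controls, again without overlap. It fell by 0.46 ± 0.11 on the log2 scale (SE; edgeR adjusted p = 0.0027). This smaller change lost its call without control library 2, at -0.35 (adjusted p = 0.224). It also did so with library totals as the scale, at -0.26 (adjusted p = 0.0815), and with all 8 libraries in 1 fit, at -0.47 (adjusted p = 0.102). Adjusted p ranged from 0.00046 to 0.224 over the 10 alternatives. Library totals shift the median of all tested genes from 0.06 to 0.25.

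Irf7, the transcription factor that amplifies interferon production, had 143 and 24 counts in the depleted libraries and 18 and 10 in the controls. These are 1.43 and 0.314 CPM against 0.185 and 0.109 CPM. The groups did not overlap, but depleted library 1 held most of the counts. Irf7 passed the filter on low counts only through the depleted group, so its test is a description and no support. The log2 fold change was 2.56 ± 0.90 (SE; edgeR adjusted p = 0.0278), and it was 1.08 without depleted library 1 (adjusted p = 0.245) and 3.19 without depleted library 2 (adjusted p = 9.68e-06). Without control library 1 it was 2.95 (adjusted p = 0.396) and without control library 2 it was 2.18 (adjusted p = 0.571). The call held in 3 of 10 alternatives, with adjusted p from 9.68e-06 to 0.571.

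Ifih1, the sensor, had 130 counts in depleted library 1 and 4 in depleted library 2, against 7 and 12 in the controls. Library 2 was thus below both controls in CPM, and the groups overlapped. With both libraries the log2 fold change was 2.73 ± 1.09 (SE; edgeR adjusted p = 0.0502) and did not pass. Without depleted library 1 the sign turned, to -0.93 (adjusted p = 0.571), and without depleted library 2 it was 3.59 (adjusted p = 6.89e-06). It also passed with RLE scaling factors, at 2.68 (adjusted p = 0.029), and the adjusted p over its 9 alternatives ran from 6.89e-06 to 0.595.

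Isg15 encodes a ubiquitin-like protein that is attached to other proteins in the interferon response, and Usp18 encodes the protease that removes it and that also dampens receptor signalling. Usp18 had 95 and 17 counts in the Ubc9-depleted libraries and 0 and 1 in the controls. Both depleted libraries were above the controls, and the ratio of the summed counts, scaled to library size, was 120.0 (95% counting interval 21.1 to 4780). Usp18 was tested only because the depleted group passed the filter on low counts, so its p-values are given as a description and support nothing. Its edgeR adjusted p was 0.00077 with all 4 libraries, 0.00113 without depleted library 1 and 1.44e-06 without depleted library 2, but 0.282 without control library 1 and 0.139 without control library 2. Over 10 alternatives it ran from 1.44e-06 to 0.282. Isg15 had 13 and 6 counts against 4 and 0, a ratio of 5.09 (1.69 to 20.6), too few for the filter on low counts.

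Ifit1 and Ifit3 encode proteins that bind viral RNA. Ifit1 had 37 counts in depleted library 1, 2 in depleted library 2 and 0 in both controls, at least 13.9-fold higher when 3 counts over the control group are taken as the limit. Ifit3 had 33 and 4 counts against 1 and 1, a ratio of 19.8 (5.12 to 170.0). Both genes were below the filter and have no test. Nearly all of their counts lay in library 1.

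Beside the counts of these 6 near-silent genes stand those of the genes that were silent in the controls. Over 5911 such genes with a known exonic length, depleted library 1 had a median of 7.31 counts per kb of exon (quartiles 2.02 and 15.2), and depleted library 2 and both controls had a median of 0. In library 1 the 6 members lay at 13.9 counts per kb (Ifit1), 15.9 (Ifih1), 17.2 (Isg15), 18.9 (Ifit3), 34.1 (Usp18) and 37.9 (Irf7). The upper quartile of the silent genes was thus passed by all of them except Ifit1, and their 90th percentile, 27.5 counts per kb, by Usp18 and Irf7. In library 2, where that percentile was 1.55 counts per kb, Irf7 had 6.36, Usp18 6.09, Isg15 7.94 and Ifit3 2.29, while Ifit1 with 0.753 and Ifih1 with 0.49 lay below it. Usp18, Ifit1 and Ifit3 are themselves among the genes silent in the controls, while Irf7, Isg15 and Ifih1 are not. In control libraries 1 and 2 Irf7 had 4.77 and 2.65 counts per kb, Isg15 5.29 and 0, and Ifih1 0.857 and 1.47. Irf7 in both controls and Isg15 in control library 1 were thus already above 1.55. Their place above that value in depleted library 2 therefore tells nothing of a rise. The part of library 1 in these differences was not tested.

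**Figure D2:**
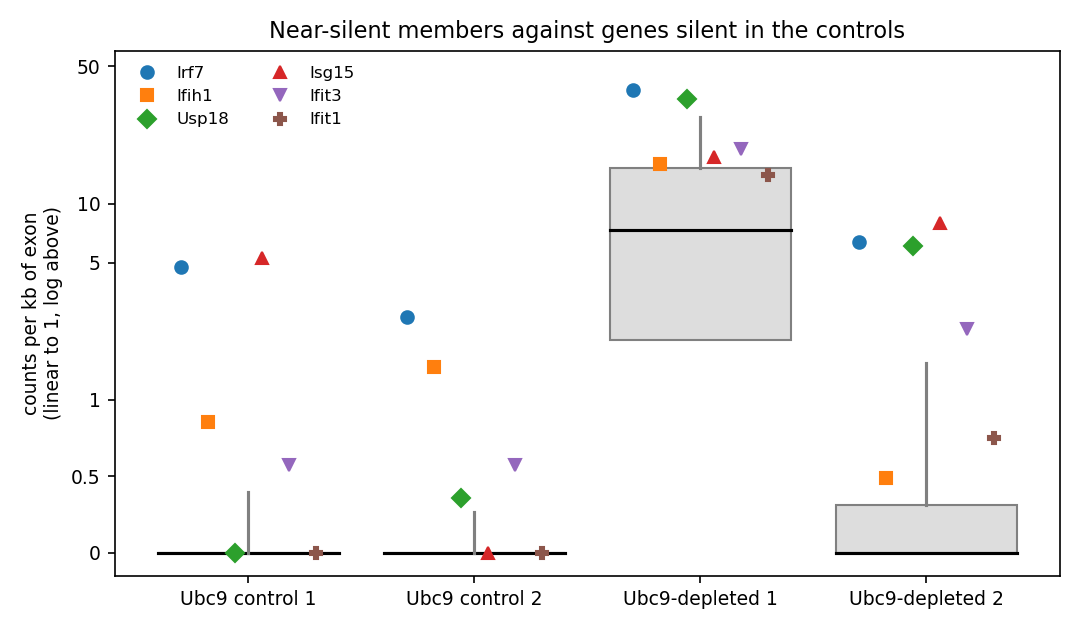
Counts per kb of exon of the 6 near-silent members in the 4 Ubc9 libraries (symbols), over the 5911 genes with no more than 1 count in either control (box: quartiles, line: median, whisker: up to the 90th percentile). In Ubc9-depleted library 1 the box spans 2.02 to 15.2 counts per kb, and in the other 3 libraries its median is 0.

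In count, 6 of the 9 members passed the filter in the Ubc9 comparison. Usp18 and Irf7 did so only through the depleted group, and Ifih1 would not have done so through its controls alone. Of these 6, Bst2, Usp18 and Irf7 were called higher and Oas1a and Xaf1 lower. Over all 16499 genes tested, 21.1% were called higher and 15% lower. Without depleted library 1 the members called were 2 higher and 2 lower, beside 19.0% and 15.3% of all genes in that fit. Without depleted library 2, where all 9 passed the filter, they were 6 higher and 2 lower, but 41.8% of all genes were then called higher and 22.9% lower. Without control library 1 they were 1 higher and 2 lower, beside 6.43% and 4.45%, and without control library 2 they were 1 and 1, beside 6.09% and 3.93%. The share of all genes called moved with the library left out too, so nothing about the set is read from these counts.

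In H1 TKO cells Xaf1 rose and was the only member called. It had 59.2 and 60.7 CPM in the TKO libraries and 13.8 and 17.6 CPM in the H1 controls. Both TKO libraries were far above both controls. The log2 fold change was 1.93 ± 0.22 (SE; 3.81-fold; edgeR adjusted p = 0.002). It passed under all 10 alternatives, with log2 values between 1.77 and 2.11 and a highest adjusted p of 0.00248.

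Bst2 stood at 43.8 and 42.3 CPM in the TKO libraries and at 19.4 and 31.7 CPM in the H1 controls. The groups did not overlap, but the controls were far apart. The log2 fold change of 0.75 ± 0.27 (SE) did not pass (edgeR adjusted p = 0.103). It was close to the Ubc9 value in size, with a wider error, and stands against a median of -0.53 for its chromosome. With only 1 control library left, the spread came from the TKO pair, and the change passed both without control library 1, at 0.44 (adjusted p = 0.0018), and without control library 2, at 1.14 (adjusted p = 4.8e-08). DESeq2 also called it (0.76, adjusted p = 0.0415), and adjusted p ran from 4.8e-08 to 0.529 over the 10 alternatives.

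Oas1a had 14.6 and 15.8 CPM in the TKO libraries and 8.93 and 13.2 CPM in the H1 controls, also without overlap. Its log2 fold change of 0.46 ± 0.26 (SE) did not pass (edgeR adjusted p = 0.275). Without control library 2 it was 0.76 (adjusted p = 0.000617), and without control library 1 it was 0.21 (adjusted p = 0.313). Over the 10 alternatives adjusted p ran from 0.000617 to 0.837.

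Irf7 had 27 and 32 counts in the TKO libraries and 5 and 2 in the H1 controls, 0.616 and 0.488 CPM against 0.0821 and 0.0388 CPM. Both TKO libraries were above both controls. Irf7 passed the filter here only through the TKO group, so its test is a description and no support. The log2 fold change of 3.12 ± 0.90 (SE) had an edgeR adjusted p of 0.0546, 3.75 without control library 1 one of 0.0341, and 2.71 without control library 2 one of 0.0746, in a range from 0.0341 to 0.481 over the 10 alternatives.

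The remaining members gave a handful of counts in the H1 libraries and were not tested. Ifih1 had 6 and 5 counts in the TKO libraries and 0 in both controls, at least 3.77-fold higher by the limit of 3 counts over the group. Usp18 had 0 and 8 counts against 0 and 0, and Ifit3 had 0 and 4 against 0 and 0, so that all of their counts came from TKO library 2. Isg15 had 0 and 10 counts against 6 and 0, a ratio of 1.71 whose counting interval, 0.564 to 5.74, spans 1. Ifit1 had 0 counts in all 4 libraries, and no difference was detectable at this depth. Among the 4 members that passed the filter, Irf7 only through the TKO group, 1 was called higher and 0 lower, beside 8.59% higher and 8.43% lower over all 14800 genes tested. Without H1 control library 1 or 2 the count called higher was 3, but 23.4% and 25.8% of all genes were then called higher.

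Whether a member responded differently in the experiments was tested as the Ubc9 change minus the H1 change, in 1 fit of all 8 libraries. Xaf1 and Oas1a differed. For Xaf1, lower with Ubc9 depletion and higher in H1 TKO cells, the difference was -2.41 ± 0.24 (SE; edgeR adjusted p = 0.000149). For Oas1a it was -1.29 ± 0.30 (SE; adjusted p = 0.0166), and it was -1.13 without depleted library 1 (adjusted p = 0.0953), in a range of adjusted p from 1.61e-09 to 0.0953 over 13 alternatives. Bst2 gave 0.00 ± 0.31 (adjusted p = 1.0), Irf7 -0.60 ± 1.40 (adjusted p = 0.822), Usp18 0.98 ± 3.46 (adjusted p = 0.892) and Isg15 1.57 ± 2.70 (adjusted p = 0.746). The wide errors of Irf7, Usp18 and Isg15 leave room for large differences either way. Of 6 members tested 0 were called higher and 2 lower, beside 8.08% and 6.43% of 16974 genes. Kit and cell line differ between the experiments and cannot be told apart from the difference.

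**Figure D3:**
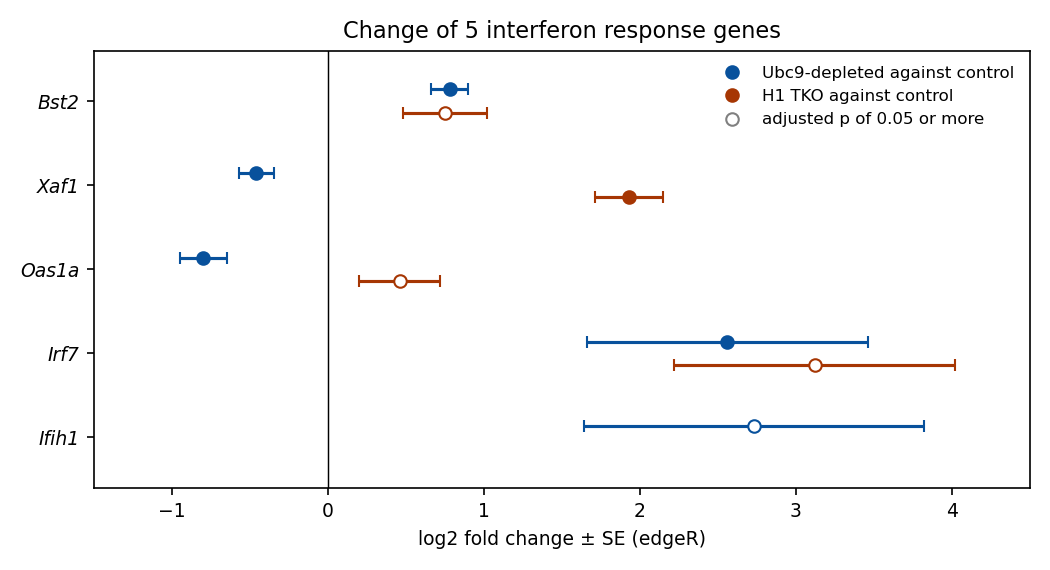
The log2 fold change with its SE for 5 members in each comparison (2 libraries a group), filled where the edgeR adjusted p was under 0.05; Ifih1 was not tested in the H1 comparison, and Usp18 is left out because its control counts are near 0. Bst2 lies near 0.78 and 0.75, while Xaf1 and Oas1a lie on opposite sides of 0 in the 2 comparisons.

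Other genes of the pathway were taken from 8 lists ordered by role, 142 genes in all with the members. Of these, 109 passed the filter in the Ubc9 comparison, where 26 were called higher and 22 lower with a median log2 fold change of 0.21, against 0.06 over all genes tested, of which 21.1% were called higher and 15% lower. In the H1 comparison 89 passed, with 10 called higher, 11 lower and a median of -0.12, beside 8.59% and 8.43% of all genes. The count of each list below is to be read against the same shares where all libraries were used. Where a library was left out, it is to be read against the share of all genes called in that fit. That share was given with the members above for the fit without Ubc9-depleted library 1. The share that passed the filter through one group only is part of these counts. Leaving out a single library also moved the counts of all genes, so for the 142 genes only medians of such fits are given. The median was 0.04 without Ubc9-depleted library 1 and 0.46 without depleted library 2, against -0.01 and 0.25 over all genes in those fits. It was 0.52 and 0.31 without Ubc9 control libraries 1 and 2, against 0.24 and 0.22. In the H1 comparison it was -0.12 and -0.22 without TKO libraries 1 and 2, against -0.05 and -0.04. Without H1 control libraries 1 and 2 it was -0.12 and -0.07, against 0.03 and 0.03.

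The interferon genes themselves were close to absent. The 21 ligand genes summed to 31 and 46 counts in the Ubc9 controls and to 62 counts in Ubc9-depleted library 2, with 17 to 19 of the 21 at 0. In depleted library 1 they summed to 382 counts with none at 0. Ifna13, an interferon alpha, was 1 of 2 ligands tested and was called higher, with 1.65 and 0.223 CPM against 0.0103 and 0.0109 CPM. Its edgeR call was lost without either control (adjusted p = 0.0654 and 0.0667), and it too was tested only through the depleted group. All 21 were at 0 in H1 TKO library 1 and H1 control library 2, and the other H1 libraries had 12 and 17 counts.

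Receptors and signalling kinases were expressed in all libraries. With Ubc9 depletion 2 of 9 were called higher and 0 lower. Ifnar2, a chain of the type I interferon receptor, stood at 13.5 and 12.4 CPM against 8.19 and 8.72 CPM, a log2 fold change of 0.62 ± 0.12 (SE; edgeR adjusted p = 0.000262). Ifngr1, of the interferon gamma receptor, rose by 0.52 ± 0.16, a call lost without either control (adjusted p = 0.234 and 0.382). In H1 TKO cells Ifnar2 was the only 1 of 9 called, at 0.89 ± 0.22 (adjusted p = 0.0316), and the call was lost without either TKO library (adjusted p = 0.304 and 0.429).

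Sensors and adaptors gave 3 higher and 3 lower of 18 tested with Ubc9 depletion, and 0 higher and 3 lower without depleted library 1. Traf6, a ubiquitin ligase that relays receptor signals, fell by 0.65 ± 0.11 on the log2 scale (SE; edgeR adjusted p = 2.78e-05). Mavs, the mitochondrial adaptor that acts downstream of the Ifih1 product, stood at 33.1 and 37.8 CPM against 52.4 and 48.1 CPM and fell by 0.50 ± 0.11 (adjusted p = 0.000991), a call lost without control library 1 (adjusted p = 0.0739). Tlr3, a receptor for double-stranded RNA, and Tlr9, a receptor for DNA, passed as higher from levels of 0.0543 CPM or less in the controls. Both were tested only through the depleted group, so their tests are a description and no support. Without depleted library 1, Tlr3 did not pass (adjusted p = 0.135), and without either control both calls were lost (adjusted p between 0.242 and 0.738). The H1 comparison gave 2 higher and 2 lower of 15. Eif2ak2, the RNA-activated kinase PKR, fell by 1.88 ± 0.39 (adjusted p = 0.019), and by 1.14 without H1 control library 1. Tmem173, the adaptor STING, fell by 1.38 ± 0.24 (adjusted p = 0.00992), and Zbp1 and Myd88 rose by 0.94 ± 0.26 and 0.88 ± 0.24 (adjusted p = 0.0478 and 0.0471). The calls of Tmem173, Zbp1 and Myd88 were lost without either TKO library, with adjusted p between 0.0849 and 0.497.

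Among transcription factors 3 of 10 tested were called higher and 1 lower with Ubc9 depletion, Irf7 included. Irf1, a factor of the same family as Irf7, had a mean of 10.3 CPM against 16.9 CPM and fell by 0.72 ± 0.11 on the log2 scale (SE; edgeR adjusted p = 1e-05). Nlrc5, an activator of MHC class I genes, rose from 0.0103 and 0.0543 CPM to 2.23 and 0.76 CPM (5.49 ± 0.93, edgeR adjusted p = 3.29e-05). The rise was 4.51 without depleted library 1 and 6.96 without control library 2. Nlrc5 was tested only through the depleted group, so its test is a description and no support. In H1 TKO cells 2 of 10 were called higher and 2 lower. Irf3 rose by 0.82 ± 0.22 (adjusted p = 0.0437), while Irf1 fell by 1.02 ± 0.23 (adjusted p = 0.027) and Stat2 by 0.92 ± 0.21 (adjusted p = 0.0249). Each of these 3 calls was lost without either TKO library, with adjusted p between 0.283 and 0.566.

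Negative regulators gave 3 higher and 2 lower of 15 with Ubc9 depletion and 0 of 14 in H1 TKO cells. Rnf125, a ubiquitin ligase that limits RNA sensing, rose from 42.9 and 42.1 CPM to 79.2 and 85.7 CPM (log2 fold change 0.96 ± 0.11, SE; edgeR adjusted p = 1.19e-07), and Usp18 is the member among the 3. The count in H1 TKO cells rose when either H1 control library was left out, as did the share of all genes called.

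The antiviral effectors, the list of Oas1a, Ifit1, Ifit3, Bst2 and Xaf1, gave 7 higher and 10 lower of 35 tested with Ubc9 depletion, and 5 higher and 11 lower of 36 without depleted library 1. Mndal, an interferon-inducible protein of the p200 family, rose from 0.226 and 0.369 CPM to 5.21 and 6.69 CPM (log2 fold change 4.32 ± 0.34, SE; edgeR adjusted p = 3.29e-11). Ifitm1, which blocks virus entry, fell by 1.15 ± 0.13 (adjusted p = 7.38e-08). Trim30a rose by 3.04 ± 0.79 (adjusted p = 0.00346), a call lost without either control (adjusted p = 0.183 and 0.324). Trim30a too was tested only through the depleted group, so its test is a description and no support. Among 25 tested in H1 TKO cells 3 rose and 1 fell. Sp100, of the PML nuclear bodies, rose from 2.02 and 2.35 CPM to 19.1 and 17.2 CPM (3.05 ± 0.26, adjusted p = 0.000778), and Oas1c, a relative of Oas1a, rose by 2.20 ± 0.46 (adjusted p = 0.0185), and by 3.04 without H1 control library 2. Ifitm1 fell here too, by 1.13 ± 0.26 (adjusted p = 0.0282), a call lost without either TKO library (adjusted p = 0.234 and 0.164). Here too the count rose when either H1 control library was left out, as did the share of all genes called.

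For ISG15 and related conjugation, 2 of 7 genes were called higher, Usp18 and Parp12, and 3 lower with Ubc9 depletion. Parp12, an interferon-induced ADP-ribosyltransferase, tripled from 7.40 and 7.60 CPM to 21.8 and 23.5 CPM (log2 fold change 1.59 ± 0.11, SE; edgeR adjusted p = 2.2e-12). Dtx3l and its partner Parp9 fell in both comparisons, by 0.48 ± 0.11 and 0.37 ± 0.11 with Ubc9 depletion (adjusted p = 0.00131 and 0.00735) and by 1.60 ± 0.23 and 1.29 ± 0.25 in H1 TKO cells (adjusted p = 0.00506 and 0.0145). Both genes lost the call in each comparison when 1 library was left out, with adjusted p between 0.0611 and 0.172. They were the 2 called of 5 tested in H1 TKO cells.

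Antigen presentation genes and interferon-induced GTPases gave 6 higher and 3 lower of 14 with Ubc9 depletion, and 6 higher and 1 lower without depleted library 1. Psmb9, a subunit of the immunoproteasome, rose in both comparisons. It went from 0.154 and 0.076 CPM to 1.06 and 0.891 CPM with Ubc9 depletion (log2 fold change 3.06 ± 0.86, SE; edgeR adjusted p = 0.00655) and from 0.41 and 0.737 CPM to 2.63 and 3.11 CPM in H1 TKO cells (2.33 ± 0.48, adjusted p = 0.018). Igtp, a GTPase, rose by 3.05 ± 0.86 with Ubc9 depletion (edgeR adjusted p = 0.00684) and fell by 2.82 ± 0.66 in H1 TKO cells (edgeR adjusted p = 0.0282). With Ubc9 depletion Psmb9 and Igtp were tested only through the depleted group, so those tests are a description and no support. These calls of Psmb9 and Igtp were lost when certain single libraries were left out (adjusted p up to 0.439), the Ubc9 ones without either control. Tap1, the peptide transporter, also rose in both, by 2.73 ± 0.26 with Ubc9 depletion (adjusted p = 1.16e-09) and by 2.24 ± 0.29 in H1 TKO cells (adjusted p = 0.0032). In H1 TKO cells the list gave 2 higher and 4 lower of 11.

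**Figure D4:**
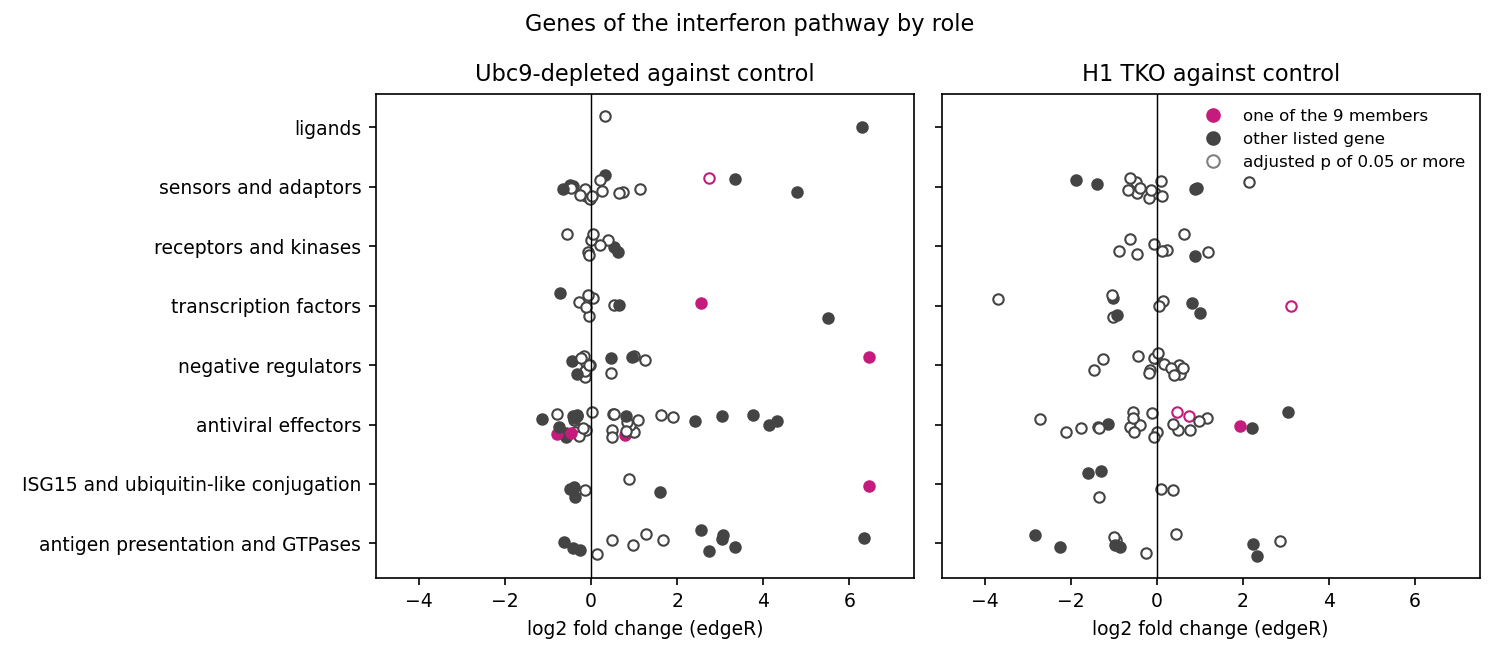
Log2 fold change of every tested gene of the 8 pathway lists in the Ubc9 comparison (left) and the H1 comparison (right), 1 point a gene, members in pink, filled where the edgeR adjusted p was under 0.05. Called genes lie on both sides of 0 in 4 of the 8 lists in the H1 panel, and a gene on several lists is drawn in each.

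Cell type markers were summed beside these genes. The 10 embryonic stem cell markers summed to between 4640 and 7130 CPM in every library, and Fgf4 was the only 1 called in either comparison, lower in both, though in the H1 comparison not without either TKO library (adjusted p = 0.232 and 0.319). The 10 fibroblast-like markers summed to 63.4 and 62.9 CPM in the Ubc9-depleted libraries and to 35.6 and 34.7 CPM in the controls, with 6 of 9 tested called higher, 8 of 9 without depleted library 1. In the H1 libraries they summed to between 12.3 and 24.5 CPM, with 1 of 4 tested called lower. The 10 leukocyte-like markers summed to 30.3 and 30.9 CPM against 19.8 and 19.5 CPM with Ubc9 depletion, with 1 of 4 tested called higher. That gene was Fcgr3, at 13.6 and 13.3 CPM against 4.47 and 4.41 CPM. Cd68, Itgam and Csf1r were not called (log2 fold change 0.03, 0.37 and 2.25). C1qa and C1qb were at 0 in depleted library 2 and in both Ubc9 controls. In the H1 comparison the sum was 42.9 and 49.9 CPM against 13.9 and 29.4 CPM, with 0 of 3 tested called. Of that sum in the H1 TKO libraries, 41.5 and 49.1 CPM were Cd68, and Ptprc, Adgre1, C1qb and Lyz2 were at 0 in all 4 H1 libraries. The part of these markers in the changes of the interferon response genes was not tested. In bulk RNA fewer cells of a type and less RNA per cell cannot be told apart.

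For the 4 members tested in both comparisons, the most similar profile among 87 listed genes was sought over the 8 libraries, after each comparison was centred on its own mean. The highest Pearson r was 0.99 for Xaf1 (with Irf2bp1, a corepressor partner of IRF2), 0.97 for Irf7 (with Oas1b), 0.93 for Oas1a (with Mavs) and 0.93 for Bst2 (with Psmb9). Among the members, Bst2 and Irf7 had r = 0.82, Oas1a and Xaf1 0.68, and Oas1a and Bst2 -0.04. These are descriptions over 8 libraries that share 4 groups, and each partner is the best of many.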

How the data were processed

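Counts per gene were analysed as deposited, in 2 tables of 24421 symbols with 4 libraries each. Per the submitters' processing notes, the authors worked on mm10 and named DESeq2, HTSeq, STAR and cutadapt; the step and version of each, the counting annotation and its strand setting are not given in these sources. edgeR 4.0.16 (R 4.3.3) was run separately on the 4 libraries of each comparison: filterByExpr (minimum count 10, minimum total 15), TMM factors, quasi-likelihood F test, two-sided, Benjamini-Hochberg adjustment over all genes tested, threshold 0.05. The interaction used all 8 libraries. CPM used TMM-scaled library sizes within a comparison, and RPKM used the union of exons in GENCODE M21. Ratios of low counts carry exact 95% counting intervals.

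Members and lists were chosen with earlier results of these data known. Named were the 9 members, the targeted genes, the best-matching list gene per member, and from each list up to 4 called genes without overlap (otherwise the highest by CPM), with Ifitm1 and Tap1 added for Ubc9 after their values were seen; some are left out of the text, and a targeted gene is not reported here. Alternatives were DESeq2 1.42.0, RLE factors, library totals, no filter, all 8 libraries in 1 fit, a replicate block and leaving out each library. With 1 library left in a group, it was assumed to vary like the other group.

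On simulated counts the test recovered 63% of 2-fold and 78% of 4-fold changes in the Ubc9 design, 23% and 83% in the H1 design, and 12% and 57% for the interaction, with 6%, 2.75% and 0% of calls false.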

Additional observations from a re-analysis of the deposited data

Results flagged for a closer look

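The Ubc9 change and the H1 change differed for 2 members by the interaction test of edgeR, as log2 differences (Ubc9 minus H1): -2.41 for Xaf1 (adjusted p = 0.000149) and -1.29 for Oas1a (adjusted p = 0.0166). Xaf1 was lower in both Ubc9-depleted libraries than in both of their controls and higher in both H1 TKO libraries than in both of theirs, and so was Oas1a.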

How the results depend on the processing

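Of 59 member values under other settings in the Ubc9 comparison, 42 kept direction and call, 14 lost the call, 2 gained it and 1 turned. In the H1 comparison 31 of 40 kept them and 9 gained the call, and for the interaction 69 of 78 kept them, 1 lost the call and 8 turned. Without depleted library 1, Ifih1 turned to -0.93 in the Ubc9 comparison, in a range up to 3.59 over the libraries left out. For the interaction, where none of these values was called with all libraries, Bst2 was 0.29 with library totals and -0.39 to 0.26 without single libraries, Usp18 -0.34 to 6.32, Irf7 -2.04 to 0.06 and Isg15 -3.51 to 7.25.

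The number of members called higher with Ubc9 depletion was 3, beside 21.1% of all genes. It became 0 with all 8 libraries in 1 fit, beside 6.48%. The number called lower was 2, beside the share of all genes given with the members above. It became 1 with that fit, beside 2.85%, and 1 with library totals, beside 6.57%. The share of all genes called thus fell in these fits too. In H1 TKO cells the number called higher was 1, beside 8.59% of all genes. It became 3 with DESeq2, beside 11.5%, 2 without a filter, beside 8.71%, and 2 with all 8 libraries, beside 13.0%. The share of all genes called also moved where a single library was left out. Leaving out single libraries gave between 1 and 6 higher and 1 and 2 lower (Ubc9), 1 and 3 higher (H1), and 1 and 2 lower (interaction). The replicate number of a library gave no pairing: deviations of same-numbered libraries correlated at 0 (Ubc9) and 0.16 (H1) with 2 pairs each. With that number as a replicate block 2 members were called higher and 2 lower with Ubc9 depletion, beside 19.2% and 16.0% of all genes. In H1 TKO cells 2 were called higher, beside 11.7%. Irf7 in the Ubc9 comparison was then at 2.27 (edgeR adjusted p = 0.0514). Bst2 in the H1 comparison was then at 0.79 (edgeR adjusted p = 0.0252).

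Over all genes, library totals gave 3983 higher and 1084 lower with Ubc9 depletion (78.6% of calls higher, against 58.5%) and 635 lower for the interaction (75.1% against 55.7%), and 1 fit of all 8 gave 1100 and 483 (Ubc9) and 2205 and 2158 (H1). No filter gave 1895 lower (H1), and DESeq2 1775 lower (interaction). Leaving out single libraries gave 1230 to 8428 higher and 795 to 4610 lower (Ubc9), 617 to 3994 and 488 to 4038 (H1), and 720 to 3222 and 565 to 2923 (interaction). The cause was not tested. Depth limits the near-silent members: the filter on low counts left 3 (Ubc9) and 5 (H1) of the 9 without a test.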
